A study of Homo sapiens with 30 samples.

Results

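The genes described here encode the proteins of the mitochondrial ribosome that carry the names MRPL and MRPS. They were chosen by their symbols, MRPL or MRPS followed by a number and at most one of the letters A to C, which gave 77 of the 26475 rows in each of the 2 deposited count tables. Bulk RNA was sequenced from lineages of MDA-MB-231, a triple-negative human breast cancer cell line, in work on cooperation between clones, per the series title. There are 30 libraries in 10 groups of 3. The first of the tables covers lineages 22, 35 and 45, each recovered by sorting after 15 days in a co-culture of 6 members with a bottleneck passage every 3 days, and each grown alone for about 24 hours, called isolation here. A second table holds lineages 03, 10 and 13 and a group labelled Pop, all in isolation. What Pop is was not given in the sources used here. All groups carry the label wild type with a distinct lineage and grew in RPMI-1640 medium with 10% dialyzed fetal bovine serum and 2 mM glutamine, with no drug or other agent. Since no label says that the libraries within a group are separate cultures, p-values measure only the spread between them, which may be technical. Co-culture and isolation libraries also differ in culture time, cell sorting and RNA extraction kit, and these cannot be told apart from co-culture itself.

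The mitochondrial ribosome, or mitoribosome, makes the few respiratory chain proteins that mitochondrial DNA encodes. Its ribosomal RNAs come from mitochondrial DNA, whereas all of its proteins are encoded in the nucleus, made on cytosolic ribosomes and imported. The large subunit (MRPL) forms peptide bonds and the small subunit (MRPS) reads the messenger RNA. Part of the proteins descend from bacterial ribosomal proteins, and the others were added to the ribosome in the mitochondrial lineage. Of the 77 genes, 50 encode large-subunit and 26 small-subunit proteins, counting MRPS30 and MRPS18A with the large subunit, where the assembled ribosome holds them. MRPS36 is counted with neither, since its product belongs to the oxoglutarate dehydrogenase complex. Bacterial counterparts are known for 46 of them, and 30 were classed as specific to mitochondria. MRPS18A and MRPS18B are among the 30, since they are diverged copies that take other places than the bacterial protein. The genes lie on 21 chromosomes.

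Promoter sequences of these genes were also searched, and whether motifs go with changes in level was not tested. RefSeq promoters (GRCh38.p14, from 250 bases before to 50 bases after the start) were matched for 68 of the 77 genes. They were searched on both strands for 5 motifs. AAGATGGC, a core of the site of YY1 (a zinc-finger regulator of many housekeeping genes), was in 20 of the 68 promoters, 29.4%, against 2.89% of all 35116 RefSeq promoters and 5.22% of the 10665 promoters of tested genes. CCGGAAG, a core of the site of ETS factors, a family that includes GABPA, was in 28, 41.2%, against 10.3% of all promoters and 18.4% of those of tested genes. GCGC, any 2 bases and GCGC again, a form of the site of NRF1 (a regulator of nuclear genes for mitochondria), was in 9, 13.2%, against 8.32% and 15.3%. The E-box CACGTG was in 6, 8.82%, against 7.26% and 9.92%, and CCAAT was in 20, 29.4%, against 34.6% and 36.6%. The motifs do not contain one another, and a match says only that the letters are there. The windows below run from 120 bases before to 30 bases after the start, all on the minus strand and written 5′ to 3′. Capitals mark matches to the YY1, ETS and NRF1 letters in either direction. MRPL38, MRPL51 and MRPL17 are shown for their rises from co-culture, MRPS10 for its opposite changes in lineages 35 and 45, and MRPS25 as the gene that was lower in all 3 lineages. They lie at chr17:75904855-75905004 (MRPL38), chr12:6493233-6493382 (MRPL51), chr11:6683311-6683460 (MRPL17), chr6:42217832-42217981 (MRPS10) and chr3:15065286-15065435 (MRPS25).
MRPL38: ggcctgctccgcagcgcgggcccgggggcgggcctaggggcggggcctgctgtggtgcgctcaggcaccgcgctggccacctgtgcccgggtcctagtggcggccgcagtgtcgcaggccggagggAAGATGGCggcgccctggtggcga
MRPL51: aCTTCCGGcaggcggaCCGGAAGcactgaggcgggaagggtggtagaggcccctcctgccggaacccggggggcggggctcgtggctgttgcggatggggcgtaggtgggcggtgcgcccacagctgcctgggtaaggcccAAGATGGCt
MRPL17: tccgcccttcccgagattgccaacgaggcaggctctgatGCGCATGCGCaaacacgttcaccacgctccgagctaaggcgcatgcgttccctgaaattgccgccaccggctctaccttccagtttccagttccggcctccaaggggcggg
MRPS10: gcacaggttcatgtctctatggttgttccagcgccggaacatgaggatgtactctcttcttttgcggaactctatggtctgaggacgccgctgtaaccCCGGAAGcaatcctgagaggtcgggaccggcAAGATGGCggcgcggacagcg
MRPS25: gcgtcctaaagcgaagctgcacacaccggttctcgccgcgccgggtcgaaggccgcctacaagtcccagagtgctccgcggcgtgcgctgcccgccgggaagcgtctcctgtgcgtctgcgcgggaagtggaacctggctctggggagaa
The MRPL38 and MRPS10 windows hold the YY1 letters just after the start, MRPS10 holds the ETS letters before it, and MRPL51 holds the ETS letters in both directions and the YY1 letters near its end. The MRPL17 window holds the NRF1 letters. The MRPS25 window holds none of these 3 motifs. The promoters of MRPL12 and MRPL55, which rose from co-culture in all 3 lineages, held none of the 5 motifs either.

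Library totals lay between 29817903 and 38843676 estimated counts for lineages 22, 35 and 45 and between 28088449 and 35356195 for the other groups, and the lowest count of any of the 77 genes in any library was 346. The libraries labelled 35 from co-culture did not resemble those labelled 35 in isolation most: over 14570 genes their log2 levels correlated on average at 0.924 with isolated 35, at 0.964 with isolated 45 and at 0.950 with isolated 22. The co-culture libraries of 22 and 45 correlated at 0.962 and 0.970 with isolation libraries of their own label, and those of 22 at 0.958 with isolated 45. The co-culture groups resembled each other more than any isolated group, at 0.978 for 22 with 35, 0.979 for 22 with 45 and 0.984 for 35 with 45. Results for lineage 35 below are therefore those of the libraries labelled 35. Pop replicate 1 stood apart from the other Pop libraries, with a chi-square per gene of 54.5 and 74.7 against 6.46 between those 2. Other groups also held a library apart, by less. From co-culture these were replicate 3 of 22 (47.0 and 34.6 against 16.1), replicate 1 of 35 (33.8 and 31.6 against 10.5) and replicate 1 of 45 (37.2 and 46.8 against 19.3). In isolation they included replicate 3 of 35 (23.3 and 26.3 against 10.2) and replicate 3 of 13 (27.1 and 28.1 against 8.63). Every library expressed the markers of the line (VIM, CD44, AXL and KRT18), summed to between 5036 and 10252 CPM (counts scaled to a common library total). ESR1 and PGR, which this line lacks, had group means of at most 0.10 CPM. ERBB2, also listed as low in this line, had group means between 71.4 CPM (isolated 22) and 102 CPM (13).

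All 77 genes passed the filter on low counts in both tables. CPM are normalized by the trimmed mean of M values (TMM) and are not corrected for transcript length, so they are compared between groups and not between genes. The mean over all libraries of the first table lay between 18.1 CPM (MRPS31) and 166 CPM (MRPS10), with a median of 53.2, and that of the second between 15.5 and 199 CPM, with a median of 57.2. The highest group mean of a gene was 1.21 to 2.24 times the lowest in the first table (median 1.57) and 1.08 to 2.21 times in the second (median 1.39). Isolated lineage 22 was the lowest group of the first table for 56 of the 77 genes, and the highest was 45 from co-culture for 29, isolated 35 for 17, 22 from co-culture for 16, 35 from co-culture for 14 and isolated 45 for 1. In the second table lineage 03 was lowest for 55 genes, and the highest was 10 for 28, Pop for 27, 13 for 20 and 03 for 2. The shares of all genes lowest or highest in each group are not given here, so these counts describe the 77 genes only. CPM values measure RNA as a share of each library, and fewer cells of a type cannot be told apart from less RNA per cell.

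Summed over the 77 genes, the level was 4715, 4976 and 5090 CPM in the 3 libraries of 22 from co-culture, against 3657, 3828 and 3524 CPM in isolated 22. For lineage 35 it was 5432, 5038 and 4822 CPM from co-culture, against 4812, 4610 and 4992 CPM in isolation. For lineage 45 it was 5557, 5363 and 4998 CPM from co-culture, against 4252, 4090 and 4233 CPM in isolation. The groups did not overlap in 22 and 45, and they overlapped in 35. In the second table the sum was 4014, 3925 and 3936 CPM in 03, 4742, 4731 and 4660 CPM in 10, and 4464, 4322 and 5008 CPM in 13, against 5529, 4423 and 4155 CPM in Pop. The Pop libraries thus spanned all values of 10 and 13, with replicate 1 at the top. The sum of large-subunit genes over that of small-subunit genes was 1.90 ± 0.05 from co-culture and 1.83 ± 0.01 in isolation for 22, 1.91 ± 0.02 and 1.72 ± 0.02 for 35, and 1.95 ± 0.01 and 1.90 ± 0.02 for 45 (SD, n = 3 each).

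**Figure D1:**
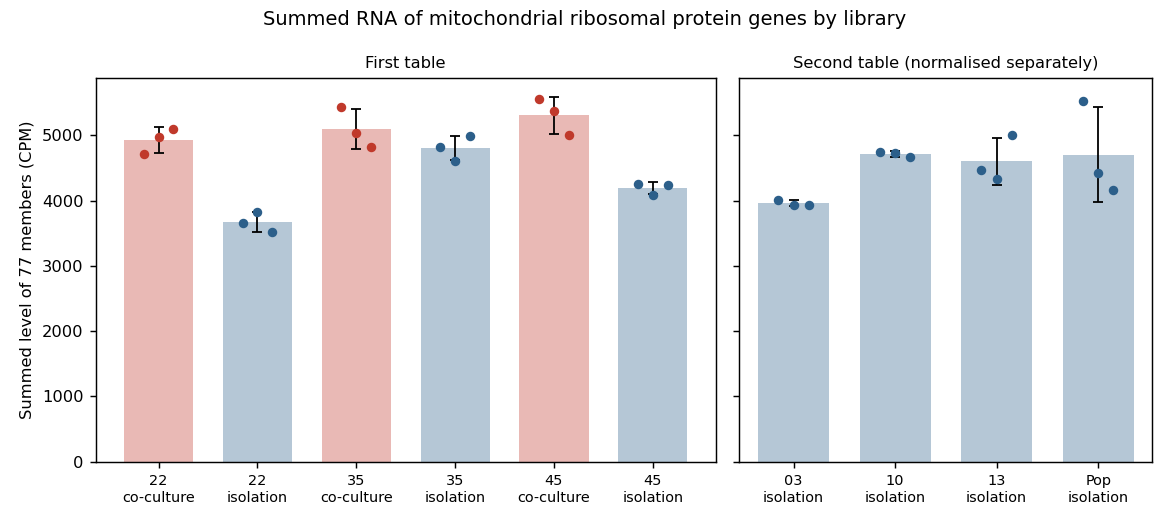
Summed level of the 77 genes (CPM, vertical axis) in each library, by group; points are libraries, bars are means and error bars are SD of 3 libraries, and the 2 tables were normalized separately. Co-culture libraries lie above isolation libraries in 22 (4715 to 5090 against 3524 to 3828 CPM) and in 45, they overlap in 35, and Pop replicate 1 lies at 5529 CPM.

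In lineage 22, mitoribosomal genes were higher from co-culture nearly throughout. Of the 77, 65 rose and 1 fell (edgeR quasi-likelihood test, Benjamini-Hochberg adjusted p under 0.05 over all genes tested), where 27% of all 14570 genes rose and 30% fell. The median log2 fold change was 0.44, against -0.04 over all genes, and none of the 77 reached 2-fold. Large-subunit genes (44 of 50 higher) and small-subunit genes (20 of 26 higher, 1 lower) had medians of 0.44 and 0.43. MRPL12, whose protein forms the flexible stalk that contacts translation factors (chr17:81703357-81707526, GRCh38, plus strand), had 140.0, 154 and 169 CPM from co-culture, against 91.1, 92.7 and 80.5 CPM in isolation. All co-culture libraries lay above all isolation libraries, and the log2 fold change was 0.81 ± 0.09 (SE, adjusted p = 4.29e-07). MRPL38, a large-subunit protein without a bacterial counterpart (chr17:75898643-75905413, minus strand), had 87.1, 90.8 and 92.9 CPM from co-culture, against 52.1, 57.2 and 51.7 CPM in isolation, and its log2 fold change was 0.75 ± 0.08 (SE, adjusted p = 3.08e-07). Exons of both genes overlap another annotated gene on the same strand, so their counts may include reads of it. MRPL27, the counterpart of a bacterial protein near the site of peptide bond formation, had 50.4, 53.04 and 57.9 CPM from co-culture, against 33.3, 34.98 and 29.6 CPM in isolation. It rose by a log2 fold change of 0.72 ± 0.09 (SE, adjusted p = 2.25e-06), without overlap between the groups. MRPS15, an rRNA-binding protein of the small subunit, had 70.03, 77.4 and 85.9 CPM from co-culture, against 48.6, 49.1 and 48.1 CPM in isolation, with a log2 fold change of 0.68 ± 0.09 (SE, adjusted p = 4.38e-06). The gene that fell was MRPS25, a small-subunit protein specific to mitochondria (chr3:15042460-15065335, minus strand), with 36.2, 35.1 and 31.6 CPM from co-culture, against 55.1, 52.8 and 43.9 CPM in isolation. Every co-culture library lay below every isolation library, and the log2 fold change was -0.56 ± 0.10 (SE, adjusted p = 6.24e-05). Without 22 co-culture replicate 1, and likewise without replicate 2, 2 genes were lower instead of 1. When libraries were scaled to their summed counts, which shifts the median of all genes by -0.14 here, 55 genes were higher and 3 lower, and the median of the 77 was 0.29 against -0.18 over all genes. Of all 14570 genes, 2673 were higher and 5673 lower under that scaling.

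Lineage 45 gave nearly the same counts. Of the 77 genes 61 rose from co-culture and 1 fell, where 18.6% of all genes rose and 23.2% fell, and the median log2 fold change was 0.34, against -0.03 over all genes. Of the large-subunit genes 41 of 50 rose, and of the small-subunit genes 19 of 26 rose and 1 fell. MRPS15 was again among the largest, with 93.6, 77.8 and 79.5 CPM from co-culture, against 57.8, 50.9 and 50.01 CPM in isolation, and a log2 fold change of 0.66 ± 0.09 (SE, adjusted p = 1.30e-05). MRPL39, a large-subunit protein related in sequence to a tRNA synthetase, had 33.9, 32.3 and 27.5 CPM from co-culture, against 20.1, 19.8 and 20.6 CPM in isolation (log2 fold change 0.63 ± 0.10 (SE, adjusted p = 5.60e-05)). In both genes the groups stood apart. MRPL48, a mitochondria-specific protein of the large subunit, had 48.7, 41.9 and 40.6 CPM from co-culture, against 28.9, 28.5 and 28.4 CPM in isolation (log2 fold change 0.61 ± 0.10 (SE, adjusted p = 7.40e-05)). MRPL13, a large-subunit protein with a bacterial counterpart, had 95.2, 78.7 and 70.9 CPM from co-culture, against 54.3, 53.8 and 54.8 CPM in isolation (log2 fold change 0.59 ± 0.10 (SE, adjusted p = 1.41e-04)). Replicate 1 of the co-culture group was the highest for all 4 of these genes, and the groups did not overlap for MRPL48 or MRPL13 either. MRPS25 was again the gene that fell, with 45.4, 40.1 and 39.8 CPM from co-culture, against 63.1, 58.4 and 57.6 CPM in isolation (log2 fold change -0.51 ± 0.10 (SE, adjusted p = 2.56e-04)), without overlap.

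In the libraries labelled 35 the genes split. From co-culture 30 rose and 14 fell, where 32.7% of all genes rose and 32.9% fell, so the share called, 57.1%, was below the 65.5% of all genes. The median log2 fold change was 0.14, against 0.01 over all genes. MRPL17, the counterpart of a bacterial large-subunit protein (chr11:6680782-6683401, minus strand), had 137, 116 and 119 CPM from co-culture, against 65.7, 59.2 and 70.4 CPM in isolation. The groups stood far apart, with a log2 fold change of 0.93 ± 0.10 (SE, adjusted p = 1.30e-07). MRPL51, a mitochondria-specific large-subunit protein (chr12:6491886-6493841, minus strand), had 174, 154 and 138 CPM from co-culture, against 79.6, 81.3 and 92.99 CPM in isolation, a log2 fold change of 0.88 ± 0.10 (SE, adjusted p = 3.17e-07). MRPL55, a large-subunit protein with a bacterial counterpart, had 28.9, 23.8 and 24.2 CPM from co-culture, against 15.04, 12.5 and 15.2 CPM in isolation, a log2 fold change of 0.85 ± 0.12 (SE, adjusted p = 2.28e-06). For MRPL48 the values were 44.6, 40.2 and 37.9 CPM from co-culture, against 23.1, 23.2 and 28.3 CPM in isolation, and the log2 fold change was 0.72 ± 0.10 (SE, adjusted p = 3.30e-06). None of these 4 genes had overlapping groups. On the other side stood MRPS10, the counterpart of a protein in the head of the bacterial small subunit (chr6:42206801-42217865, minus strand), with 165, 155 and 161 CPM from co-culture, against 259, 259.8 and 249 CPM in isolation. All 3 co-culture libraries lay far below, with a log2 fold change of -0.67 ± 0.10 (SE, adjusted p = 5.47e-06). MRPL2, a protein of the large subunit's catalytic region (chr6:43054029-43059806, minus strand), had 57.4, 50.8 and 47.001 CPM from co-culture, against 82.7, 76.9 and 86.2 CPM in isolation (log2 fold change -0.66 ± 0.09 (SE, adjusted p = 2.24e-06)). MRPS9, a small-subunit protein near the decoding site in bacteria (chr2:105037983-105099960, plus strand), had 34.7, 36.9 and 32.9 CPM from co-culture, against 54.7, 51.01 and 58.3 CPM in isolation (log2 fold change -0.65 ± 0.09 (SE, adjusted p = 5.32e-06)). MRPL14, which lies at the interface of the subunits (chr6:44113454-44127457, minus strand), had 97.5, 84.5 and 79.9 CPM from co-culture, against 138, 122 and 140.1 CPM in isolation (log2 fold change -0.61 ± 0.09 (SE, adjusted p = 1.08e-05)). For all 4 genes that fell, isolated 35 was the highest group of the table, and none of the 4 differed by the test between 35 and either other lineage from co-culture.

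**Figure D2:**
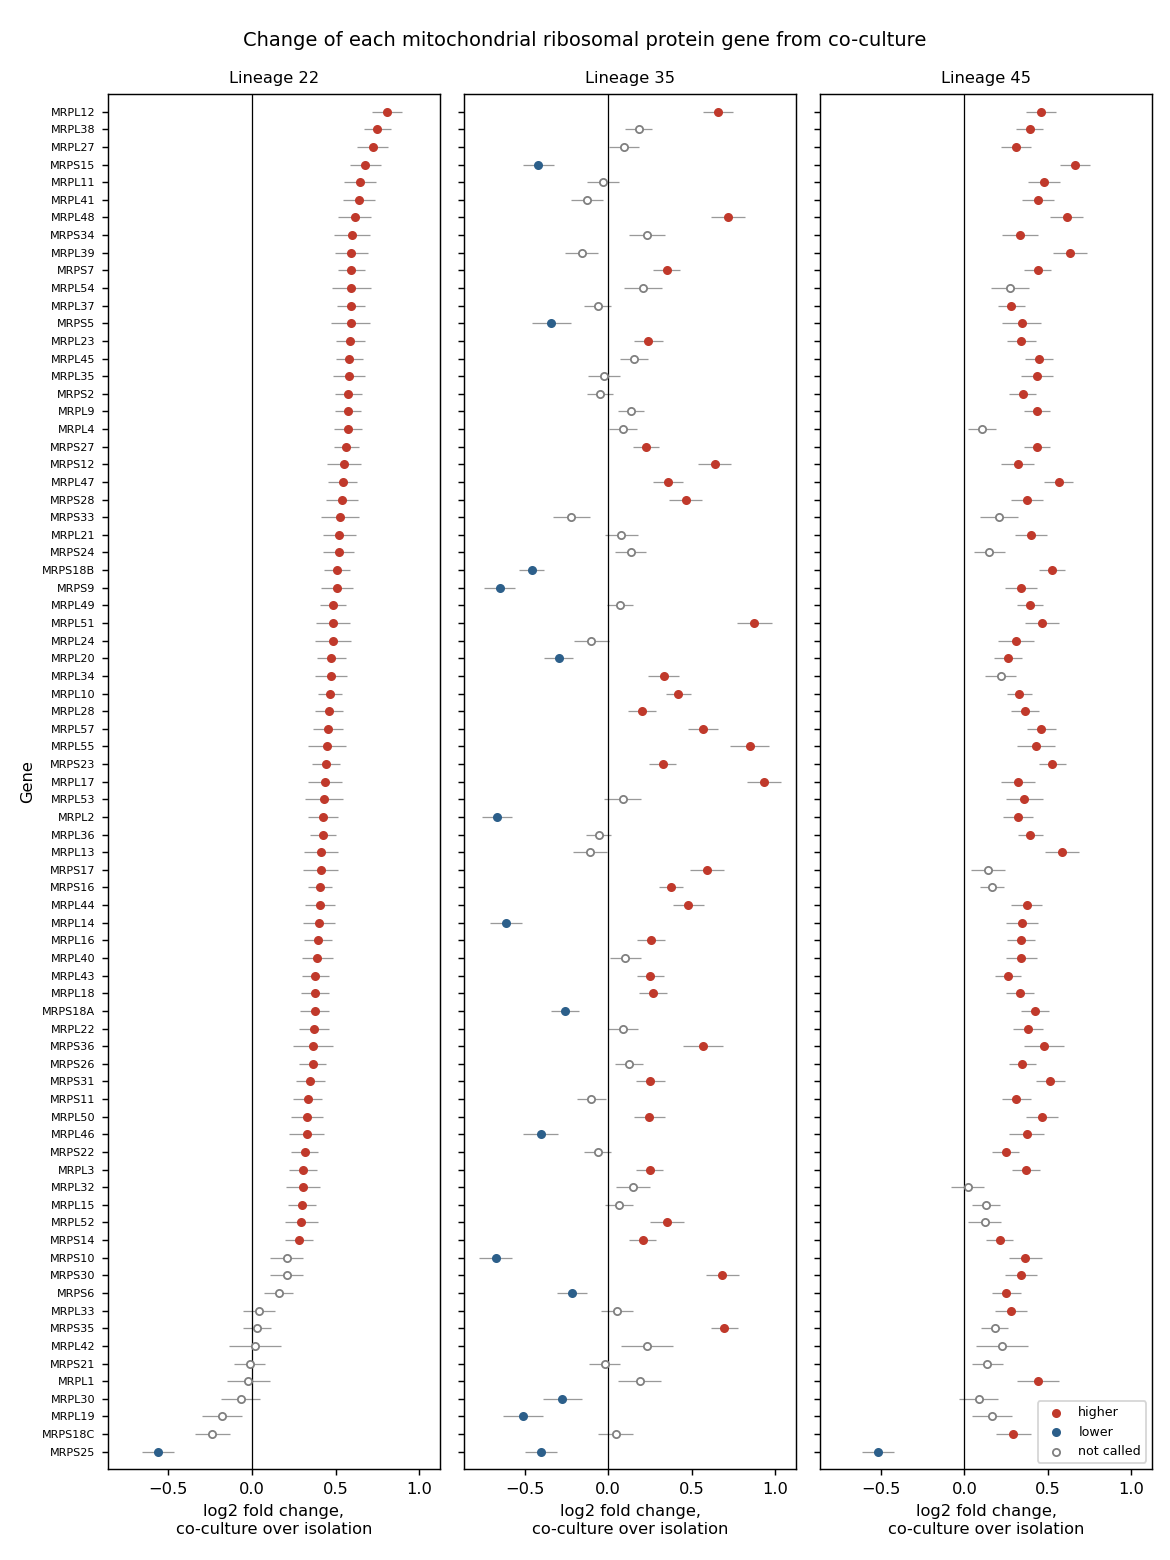
Log2 fold change of co-culture over isolation (horizontal axis) for each of the 77 genes (vertical axis, ordered by lineage 22) in lineages 22, 35 and 45; points are fitted values, bars are SE, and filled points passed an adjusted p under 0.05. In 22 and 45 nearly all points lie right of 0 with MRPS25 at -0.56 and -0.51, while 30 genes are higher and 14 lower in 35.

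Taken gene by gene, 24 of the 77 genes rose in all 3 lineages, 31.2%, where 7.77% of all genes did. They were MRPL3, MRPL10, MRPL12, MRPL16, MRPL17, MRPL18, MRPL23, MRPL28, MRPL43, MRPL44, MRPL47, MRPL48, MRPL50, MRPL51, MRPL55, MRPL57, MRPS7, MRPS12, MRPS14, MRPS23, MRPS27, MRPS28, MRPS31 and MRPS36. MRPS25 fell in all 3, with 38.03, 39.02 and 35.1 CPM from co-culture, against 53.8, 50.2 and 44.1 CPM in isolation in lineage 35 (log2 fold change -0.40 ± 0.10 (SE, adjusted p = 0.00109)); 10.6% of all genes fell in all 3. MRPS12, a protein of the decoding centre, rose by log2 fold changes of 0.55 ± 0.10 in 22, 0.64 ± 0.10 in 35 and 0.32 ± 0.10 in 45 (SE). MRPS36, the dehydrogenase subunit, rose by 0.37 ± 0.12, 0.57 ± 0.12 and 0.48 ± 0.12 in the same lineages. Another 22 genes, 28.6% against 3.17% of all genes, rose in 22 and 45 and were not called in 35. For 9 genes, 11.7% against 1.89% of all genes, the direction was opposite, higher in 22 and 45 and lower in 35: MRPL2, MRPL14, MRPL20, MRPL46, MRPS5, MRPS9, MRPS15, MRPS18A and MRPS18B. MRPL42 and MRPS21 were called in none of the 3 lineages, against 14.4% of all genes. These 3 comparisons have different libraries, but the co-culture members grew in mixtures whose number the labels do not give.

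The paralogs MRPS18A, MRPS18B and MRPS18C are related to 1 bacterial protein, whose place MRPS18C takes, and the mitoribosome uses the other copies elsewhere. MRPS18A and MRPS18B, both on chromosome 6, moved alike: MRPS18B had log2 fold changes of 0.51 ± 0.08 in 22, -0.46 ± 0.08 in 35 and 0.52 ± 0.08 in 45, and MRPS18A 0.37 ± 0.09, -0.26 ± 0.08 and 0.42 ± 0.09 (SE, all called). MRPS18C, on chromosome 4, gave -0.24 ± 0.11, 0.05 ± 0.10 and 0.29 ± 0.10, and only the value of 45 passed the test (adjusted p = 0.0286).

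The responses of the lineages were then compared with each other by an interaction term. The response of 22 exceeded that of 35 for 33 genes and was smaller for 5, where 24.2% and 25.4% of all genes were called so. The 38 genes make 49.4% of the 77, close to the 49.6% of all genes called in either direction, while the balance of directions was uneven. MRPS9 differed most, by a log2 difference of 1.16 ± 0.13 (SE, adjusted p = 5.22e-07), followed by MRPS15 (1.10 ± 0.13 (SE, adjusted p = 6.13e-07)), MRPL2 (1.09 ± 0.13 (SE, adjusted p = 6.26e-07)) and MRPL14 (1.01 ± 0.13 (SE, adjusted p = 2.76e-06)). In the other direction MRPS35, a mitochondria-specific small-subunit protein, differed by -0.67 ± 0.12 (SE, adjusted p = 8.09e-05). MRPS35 had 95.9, 99.4 and 98.01 CPM in 35 from co-culture, against 60.4, 61.1 and 59.6 CPM in isolated 35, and 88.7, 90.8 and 77.9 CPM in 22 from co-culture, against 81.2, 89.1 and 81.9 CPM in isolated 22. Lineage 35 thus changed without overlap and lineage 22 hardly at all. Between 35 and 45 the response of 35 was larger for 6 genes and smaller for 27, where 22.8% and 19.5% of all genes were called so, 42.3% in either direction. The extremes were MRPL17 (0.61 ± 0.14 (SE, adjusted p = 0.00181)) and MRPS15 (-1.08 ± 0.13 (SE, adjusted p = 9.63e-07)). Between 22 and 45 only 4 genes were called, 3 with the larger response in 22 and 1 with the smaller, where 9.25% and 8.08% of all genes were, 17.3% in either direction. MRPL4, which lines the exit tunnel of the large subunit, had 67.3, 71.4 and 76.8 CPM in 22 from co-culture, against 50.002, 49.2 and 45.8 CPM in isolated 22. In lineage 45 MRPL4 had 98.7, 101 and 101 CPM from co-culture, against 101, 89.05 and 88.9 CPM in isolation. Its groups overlapped in 45 and not in 22, and the responses differed by 0.47 ± 0.12 (SE, adjusted p = 0.00917). Scaling by summed counts left 1 higher and 1 lower between 22 and 45, where 815 and 1416 of all genes were called so. Single libraries changed the small counts. The 3 genes with the larger response in 22 than in 45 became 1 without 22 isolation replicate 1 or 3, 22 co-culture replicate 3 or 45 isolation replicate 1, and 5 without 22 co-culture replicate 1. The 1 gene with the smaller response became 0 without 22 isolation replicate 2 and 2 without 45 isolation replicate 3 or 45 co-culture replicate 3. The 5 genes with the smaller response in 22 than in 35 became 3 without 22 isolation replicate 2, 22 co-culture replicate 1, 35 isolation replicate 2 or 35 co-culture replicate 1. The 6 genes with the larger response in 35 than in 45 became 3 without 35 isolation replicate 2, 35 co-culture replicate 1 or 45 co-culture replicate 3.

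Cancer cell lineages can differ in the copy number of chromosome segments, so each gene was set beside the median log2 fold change of the 50 tested genes nearest to it on its chromosome. Copy number itself was not measured. Across the 77 genes the change from co-culture correlated with that of the neighbours at a Pearson r of 0.73 in 35, 0.38 in 22 and 0.22 in 45, a description, since genes close together share neighbours and all values share the libraries. Of the 6 genes on chromosome 6, 5 lie within chr6:30617709-44127457 and were lower from co-culture in 35, as were their neighbours: the log2 fold change was -0.67 for MRPS10 against -0.99 for its neighbours, -0.66 for MRPL2 against -0.73, and -0.61 for MRPL14 against -0.66. MRPS18B gave -0.46 against -0.79 and MRPS18A -0.26 against -0.69. MRPL18, at chr6:159789812-159798436, rose by 0.27 where its neighbours gave -0.12. On chromosome 2, MRPS9 gave -0.65 against -0.65. On chromosome 12, MRPL51 gave 0.88 against 0.68 and MRPS35 0.70 against 0.75. Neighbours of further genes also shifted in 35, as for MRPL20 (-0.30 against -0.75), MRPL41 (-0.13 against -0.67) and MRPL52 (0.35 against 0.61). Those of MRPL17 and MRPS25 moved little: MRPL17 gave 0.93 against 0.14 in 35. MRPS25 gave -0.56 against -0.01 in 22, -0.40 against 0.14 in 35 and -0.51 against 0.02 in 45. With the neighbours' median taken off each gene, the median of the 77 was 0.40 in 22, 0.16 in 35 and 0.38 in 45, and 72, 60 and 76 of the 77 values were above 0. The share of all genes above their own neighbours' median is not given here. Neighbour medians ran from -0.48 to 0.33 in 22, from -0.99 to 0.75 in 35 and from -0.41 to 0.17 in 45. The median difference in response between 22 and 35 was 0.28 as measured and 0.15 less the neighbours.

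**Figure D3:**
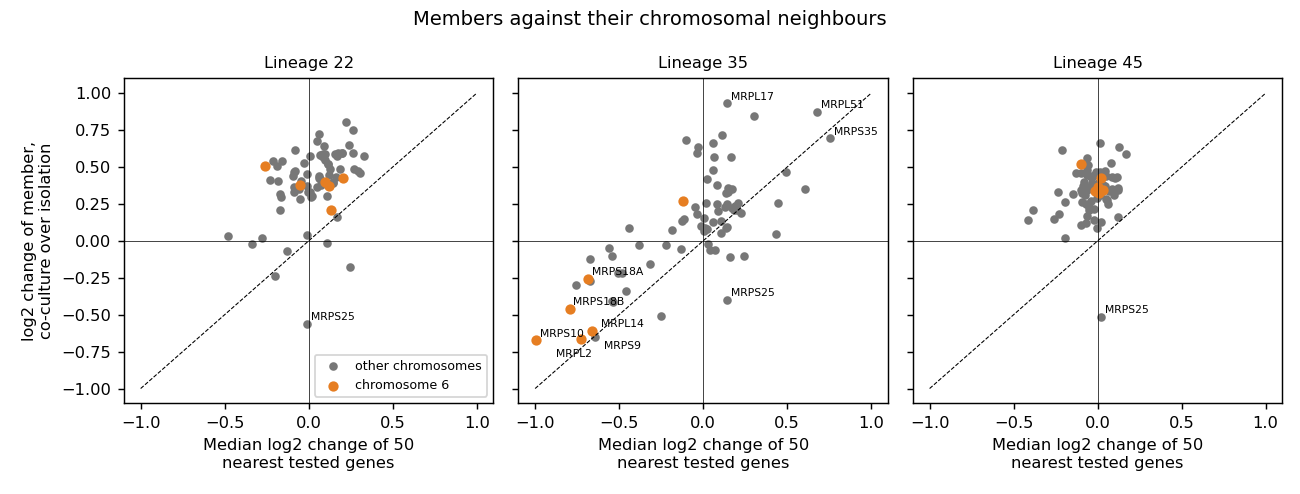
Log2 fold change of each of the 77 genes, co-culture over isolation (vertical axis), against the median of its 50 nearest tested genes (horizontal axis), by lineage; the dashed line marks equal values and orange points are the 6 genes of chromosome 6. In lineage 35 the 5 low orange points lie where their neighbours also fell (-0.66 to -0.99), and MRPS25 lies below 0 with neighbours at -0.01, 0.14 and 0.02 in lineages 22, 35 and 45.

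Isolated lineages differed in these genes as well, and isolated 22 was low. It was lower than isolated 35 for 48 genes and higher for 6, where 31.4% of all genes were lower and 32.2% higher, with a median log2 fold change of -0.26. MRPL14 had 61.3, 62.7 and 54.6 CPM in isolated 22, against 138, 122 and 140.1 CPM in isolated 35 (log2 fold change -1.16 ± 0.10 (SE, adjusted p = 1.62e-09)), and MRPL2 gave -1.10 ± 0.09 (SE, adjusted p = 2.10e-09). MRPL37, a mitochondria-specific large-subunit protein (chr1:54184041-54225464, plus strand), had 81.7, 86.9 and 78.1 CPM in isolated 22, against 172, 165 and 181 CPM in isolated 35 (log2 fold change -1.07 ± 0.08 (SE, adjusted p = 7.08e-10)). The groups of these genes stood apart, as did those of MRPS35, which was higher in 22 (0.48 ± 0.08 (SE, adjusted p = 4.20e-05)). Against isolated 45, isolated 22 was lower for 21 genes and higher for 1, MRPS18B, where 19.8% of all genes were lower and 18.6% higher, and the median was -0.13. MRPL4 had 50.002, 49.2 and 45.8 CPM in 22, against 101, 89.05 and 88.9 CPM in 45 (log2 fold change -0.94 ± 0.08 (SE, adjusted p = 2.93e-08)), MRPL37 gave -0.80 ± 0.08 (SE, adjusted p = 2.11e-07) and MRPL32, a large-subunit protein that is cut to its mature form in the mitochondrion, -0.80 ± 0.10 (SE, adjusted p = 3.13e-06). The neighbours of these 3 genes had medians of -0.52, -0.53 and -0.54. MRPS18B was no longer called without 22 isolation replicate 2 or 45 isolation replicate 3, which left 0 genes higher. Isolated 35 was above isolated 45 for 25 genes and below it for 10, where 24.3% and 27.6% of all genes were, and the split became 23 and 15 when libraries were scaled by summed counts. Under that scaling 3149 of all 14570 genes were above and 4395 below. MRPS10 had 259, 259.8 and 249 CPM in 35, against 115, 131 and 133 CPM in 45 (log2 fold change 1.02 ± 0.10 (SE, adjusted p = 2.85e-08), neighbours 0.84). Every library of 35 lay far above any of 45 in this gene. MRPL17 had 65.7, 59.2 and 70.4 CPM in 35, against 106, 95.5 and 98.3 CPM in 45 (log2 fold change -0.62 ± 0.10 (SE, adjusted p = 3.36e-05), neighbours -0.19). Without 35 isolation replicate 2, 6 genes were lower instead of 10. Across the 77 genes these differences correlated with those of the neighbours at a Pearson r of 0.79 for 22 against 35, 0.78 for 22 against 45 and 0.83 for 35 against 45.

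**Figure D4:**
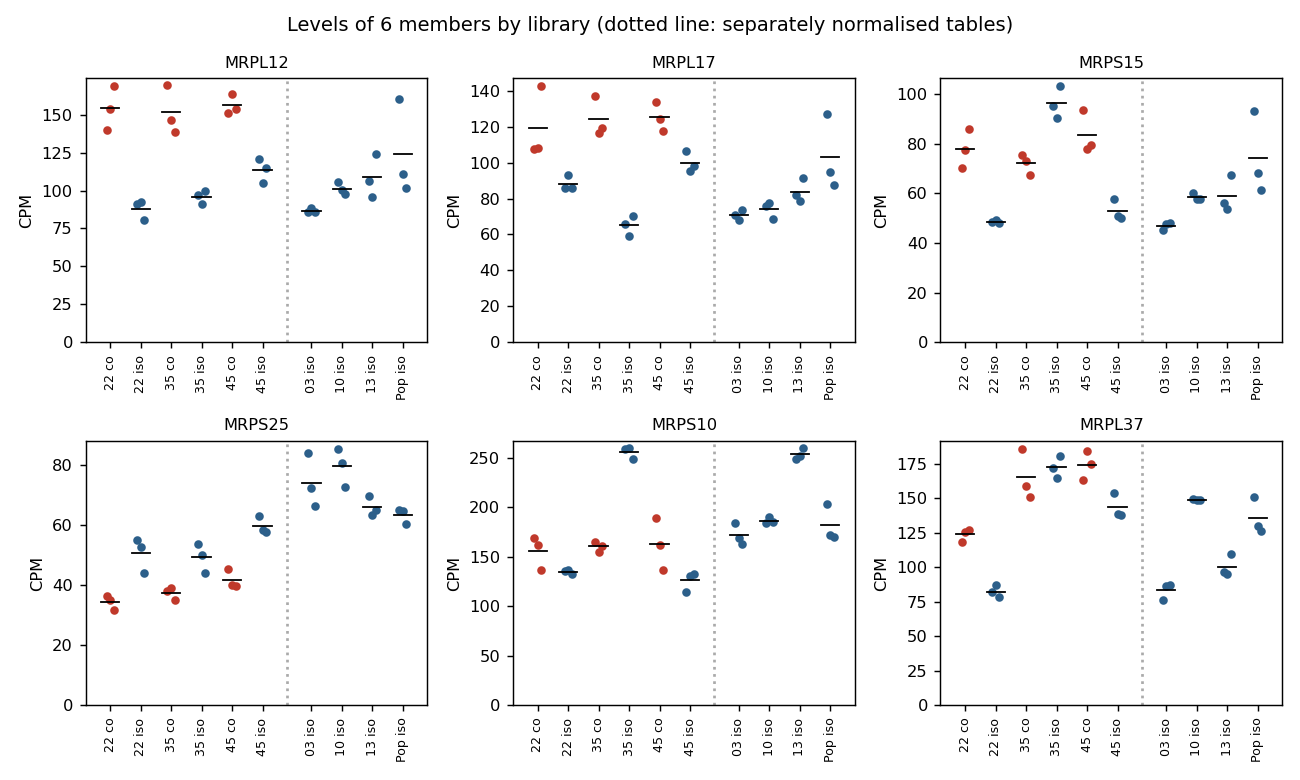
Level in CPM (vertical axis) of MRPL12, MRPL17, MRPS15, MRPS25, MRPS10 and MRPL37 in each library by group (co: co-culture, iso: isolation); short lines are means of 3 libraries, and the dotted line parts the separately normalized tables. Isolated 35 is the highest group of the first table for MRPS10 and MRPS15 and the lowest for MRPL17, and MRPS25 is lower from co-culture in each lineage.

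The lineages recovered from co-culture were also compared with each other. Lineage 22 was above 35 for 5 genes and below it for 13, where 15.6% and 15.5% of all genes were. MRPS5 gave the largest rise (0.43 ± 0.12 (SE, adjusted p = 0.00863)) and MRPL4 the largest fall (-0.55 ± 0.08 (SE, adjusted p = 4.56e-05)), followed by MRPL34 (-0.54 ± 0.09 (SE, adjusted p = 1.69e-04)) and MRPS17 (-0.53 ± 0.10 (SE, adjusted p = 5.46e-04)). MRPL4 had 67.3, 71.4 and 76.8 CPM in 22 from co-culture, against 115, 104 and 96.2 CPM in 35 from co-culture, so these groups did not overlap. The 5 higher genes became 3 without 22 co-culture replicate 2 or 35 co-culture replicate 2 or 3, and 2 without 22 co-culture replicate 3. Lineage 22 was above 45 for 1 gene, MRPS18B, and below it for 17, where 13.2% and 12% of all genes were. MRPL36, a small large-subunit protein with a bacterial counterpart, had 38.9, 40.6 and 41.01 CPM in 22, against 71.2, 62.4 and 58.6 CPM in 45 (log2 fold change -0.67 ± 0.08 (SE, adjusted p = 2.29e-06)). Its groups stood apart. MRPL1 had 48.5, 46.5 and 37.4 CPM in 22, against 74.8, 75.5 and 50.998 CPM in 45 (log2 fold change -0.60 ± 0.13 (SE, adjusted p = 0.00156)), with replicate 3 the lowest in both groups, and MRPS18C gave -0.55 ± 0.10 (SE, adjusted p = 6.48e-04). The 17 lower genes became 10 without 45 co-culture replicate 1, and 8 when these groups were fitted alone. Counts over all genes in these 2 refits are not given here. The single higher gene became 2 without 22 co-culture replicate 1 and 0 without 22 co-culture replicate 3 or 45 co-culture replicate 3. Lineage 35 was above 45 for 0 genes in edgeR and in DESeq2, against 6.42% of all genes, and for 1 gene at an unadjusted p under 0.05. It was below 45 for 2, against 6.28%, namely MRPL36 (-0.54 ± 0.08 (SE, adjusted p = 5.08e-05)) and MRPS21 (-0.41 ± 0.09 (SE, adjusted p = 0.00388)). Without 45 co-culture replicate 1, 1 gene was higher. These differences were not tested against those in isolation other than by the interaction above.

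In the second table lineage 03 was below Pop for 34 genes and above it for 3, where 25.5% of all genes were lower and 23.2% higher, and the median log2 fold change was -0.22, against -0.03 over all genes. MRPL47, a large-subunit protein with a bacterial counterpart (chr3:179588285-179604654, minus strand), had 35.8, 36.4 and 36.2 CPM in 03, against 85.4, 64.8 and 59.5 CPM in Pop. No library of 03 came near one of Pop, and the log2 fold change was -0.95 ± 0.12 (SE, adjusted p = 3.29e-05). MRPL20, which organizes rRNA in bacterial assembly, had 37.8, 35.3 and 34.8 CPM in 03, 36.3, 33.99 and 34.1 CPM in 10 and 38.3, 33.7 and 45.8 CPM in 13, against 82.4, 57.05 and 51.7 CPM in Pop. It lay below Pop without overlap in each lineage, by -0.82 ± 0.15 (SE, adjusted p = 5.37e-04) in 03, -0.87 ± 0.15 (SE, adjusted p = 4.33e-04) in 10 and -0.70 ± 0.15 (SE, adjusted p = 0.00191) in 13, 3 comparisons that share the Pop libraries. MRPL37 gave -0.71 ± 0.09 (SE, adjusted p = 1.86e-05) in 03, with neighbours at -0.62. The genes above Pop in 03 were MRPS6 (0.47 ± 0.11 (SE, adjusted p = 0.00380)), MRPS5 (0.25 ± 0.10 (SE, adjusted p = 0.0417)) and MRPL49 (0.19 ± 0.06 (SE, adjusted p = 0.0233)). MRPS6 shares exon sequence with SLC5A3 on the same strand.

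Lineage 10 was above Pop for 11 genes and below it for 11, where 18.8% and 23.5% of all genes were, with a median of 0.00, and the split was 18 and 7 when libraries were scaled by summed counts. Under that scaling 3429 of all 14638 genes were above Pop and 2923 below. MRPS31, a mitochondria-specific small-subunit protein with 4 named pseudogenes (chr13:40729135-40771173, minus strand), had 30.98, 31.1 and 31.3 CPM in 10, against 19.7, 17.9 and 16.96 CPM in Pop (log2 fold change 0.77 ± 0.08 (SE, adjusted p = 7.46e-06)). MRPS21, with 8 named pseudogenes (chr1:150293720-150308979, plus strand), had 14.97, 13.4 and 13.9 CPM in 10, against 32.7, 21.6 and 19.2 CPM in Pop (log2 fold change -0.80 ± 0.16 (SE, adjusted p = 0.00148)). All libraries of 10 stood outside those of Pop, above for MRPS31 and below for MRPS21, and how reads were shared with the pseudogenes is not given in the sources used here. The neighbours of MRPS31 had a median of 0.50 and those of MRPS21 of 0.17. Lineage 13 was above Pop for 8 genes and below it for 13, where 21% and 24.2% of all genes were, with a median of -0.02. MRPS30, now placed in the large subunit, had 21.8, 20.5 and 22.1 CPM in 13, against 39.1, 34.6 and 35.5 CPM in Pop (log2 fold change -0.76 ± 0.07 (SE, adjusted p = 2.59e-06), neighbours -0.32). MRPS10 had 249, 252 and 259.7 CPM in 13, against 204, 172 and 169.7 CPM in Pop (log2 fold change 0.48 ± 0.08 (SE, adjusted p = 2.42e-04), neighbours 0.52). Neither gene had overlapping groups.

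The Pop comparisons rested in part on Pop replicate 1, the library with the highest summed level. Without it, 8 genes were above and 26 below Pop in 03, 27 and 6 in 10, and 19 and 12 in 13. Without Pop replicate 3 the counts were 1 and 43 in 03, 9 and 21 in 10, and 5 and 27 in 13. The 3 higher genes of 03 became 1 without 03 isolation replicate 1 or 2 or Pop replicate 2. The 11 lower genes of 10 became 6 without any 1 library of 10, and the 13 lower genes of 13 became 8 without 13 isolation replicate 1. For these refits the counts over all genes are not given here, so the shifts describe the mitoribosomal genes only. Whether they differ from the shifts of all genes was not tested.

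Comparisons among 03, 10 and 13 do not use Pop. Lineage 03 was below 10 for 27 genes and above it for 3, where 25% and 26.4% of all genes were, and below 13 for 27 and above it for 5, where 27.1% and 26.1% were. The medians were -0.22 and -0.20, against -0.01 and -0.03 over all genes. MRPS31 had 15.02, 14.5 and 12.8 CPM in 03, against 30.98, 31.1 and 31.3 CPM in 10 (log2 fold change -1.14 ± 0.08 (SE, adjusted p = 1.28e-07)), the largest difference of any of these genes in the second table. MRPL47 gave -1.02 ± 0.12 (SE, adjusted p = 1.35e-05) and MRPL37 -0.84 ± 0.09 (SE, adjusted p = 2.89e-06) against 10, and MRPS21 was above 10 (0.91 ± 0.16 (SE, adjusted p = 3.84e-04)). Against 13, MRPL53 (-0.74 ± 0.15 (SE, adjusted p = 0.00116)) and MRPL41 (-0.70 ± 0.11 (SE, adjusted p = 1.90e-04)), both mitochondria-specific large-subunit proteins, were lower, with neighbours at -0.68 and -0.69. Lineage 10 was above 13 for 17 genes and below it for 8, where 16.6% and 18% of all genes were. MRPS30 had 41.98, 40.7 and 39.6 CPM in 10, against 21.8, 20.5 and 22.1 CPM in 13, far apart in every library (log2 fold change 0.93 ± 0.07 (SE, adjusted p = 7.86e-07)). MRPS27, a small-subunit protein with RNA-binding repeats, had 153, 151 and 152 CPM in 10, against 97.2, 92.3 and 99.4 CPM in 13 (log2 fold change 0.66 ± 0.06 (SE, adjusted p = 2.27e-06)). MRPS21 was below 13 (-0.83 ± 0.16 (SE, adjusted p = 0.00130)), its neighbours being at 0.05. Lineage 03 was below 10 for 46 genes instead of 27 when libraries were scaled by summed counts, and for 48 when these groups were fitted alone. With summed counts 4611 of all 14638 genes were lower, against 3658 in the main fit, and the median of all genes shifted by -0.08. For the fit of these groups alone the count over all genes is not given here. Without 13 isolation replicate 3, 17 genes were lower in 03 than in 13 instead of 27, and 3 were lower in 10 than in 13 instead of 8. Those 8 became 5, 5 and 4 without 10 isolation replicates 1, 2 and 3 in turn.

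**Figure D5:**
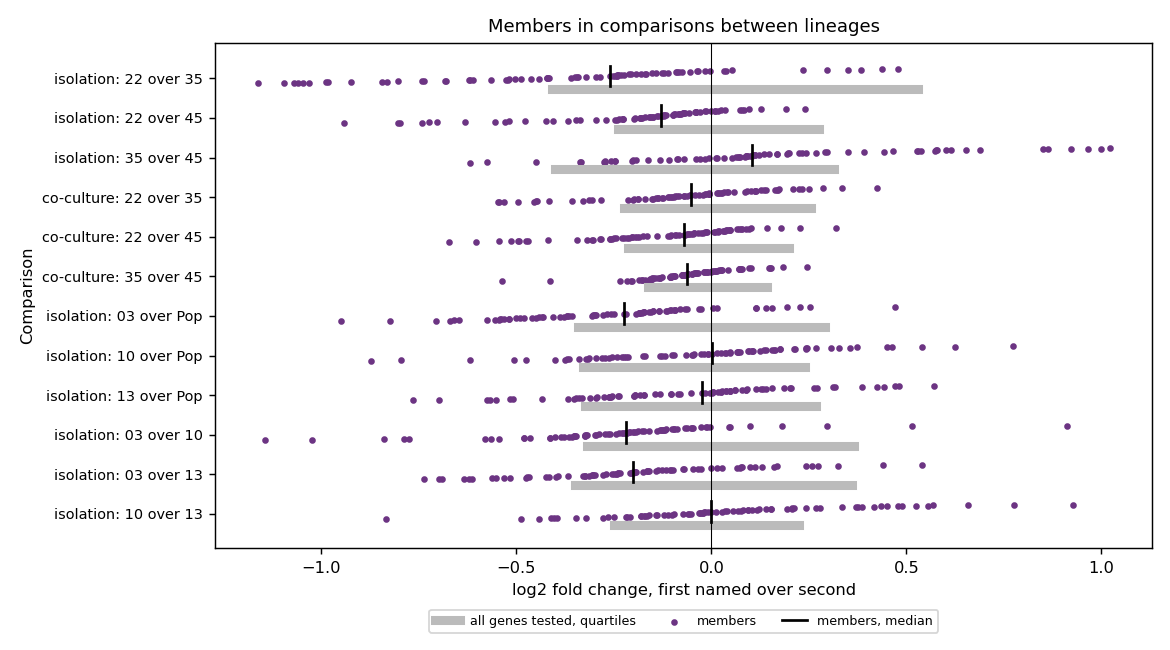
Log2 fold change (horizontal axis, first named lineage over second) of the 77 genes in 12 comparisons between lineages (rows); points are genes, black lines their medians and grey bars the quartiles of all genes tested. The medians lie left of 0 for isolated 22 and for 03 (-0.26 for 22 over 35, -0.22 for 03 over Pop) and close to 0 for 10 over Pop and 13 over Pop.

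Other parts of the mitochondrial translation system were counted from lists that were chosen with results of these data known. Their counts stand beside 27% of all genes higher and 30% lower in 22, 32.7% and 32.9% in 35, and 18.6% and 23.2% in 45. Of 6 tested mitoribosome subunits with other names, 5 rose and none fell from co-culture in 22, 2 rose and 1 fell in 35, and 3 rose and none fell in 45. GADD45GIP1 gave a log2 fold change of 0.84 ± 0.12 in 22, and PTCD3, a small-subunit protein, -0.91 ± 0.10 in 35 (SE). Of 22 assembly factors, 14 rose and 1 fell in 22, 9 and 4 in 35, and 7 and 1 in 45. MTG1, a GTPase of large-subunit assembly, gave 0.85 ± 0.08 in 22, and TFB1M, which methylates the small rRNA, 0.82 ± 0.14 in 22 and 0.60 ± 0.14 in 45. In 35 the assembly factor NSUN4 gave 0.84 ± 0.08 and RBFA -1.11 ± 0.12. Of 12 translation factors, 6 rose and none fell in 22, 6 and 3 in 35, and 5 and none in 45. The elongation factor TUFM gave 0.69 ± 0.08 in 22 and 0.36 ± 0.08 in 45, and its exchange factor TSFM 1.01 ± 0.10 in 35. Of 8 genes of mitochondrial transcription and RNA upkeep, 5 rose and 1 fell in 22, 2 and 1 in 35, and 3 and 2 in 45, and the RNA polymerase POLRMT gave 0.54 ± 0.08 in 22 and -0.28 ± 0.08 in 45. Of 9 regulators of nuclear genes for mitochondria, 5 rose in 22 and 3 each in 35 and 45, and none fell; in 35 the rises were near the share of all genes. MYC gave 0.33 ± 0.07 in 22, 0.74 ± 0.07 in 35 and 0.48 ± 0.07 in 45, and the coactivator PPARGC1A 2.88 ± 0.25 in 35.

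Cytosolic ribosomal protein genes, which encode the ribosome of the cytoplasm, and nuclear genes for the respiratory chain were counted in the same way, beside the same shares of all genes: 27% higher and 30% lower in 22, 32.7% and 32.9% in 35, and 18.6% and 23.2% in 45. Of 82 tested cytosolic ribosomal protein genes 75 rose and none fell in 22, 61 rose and 9 fell in 35, and 77 rose and none fell in 45, with median log2 fold changes of 0.64, 0.34 and 0.50. Of 75 nuclear genes for respiratory chain subunits 61 rose and 4 fell in 22, 32 and 12 in 35, and 51 and none in 45, with medians of 0.43, 0.14 and 0.35. The counts of these lists are from edgeR. Of those with no gene lower, 1 cytosolic ribosomal protein gene and 1 of the other-named subunits were lower in 22 at an unadjusted p under 0.05, and 0 genes in the rest. The medians of the 77 mitoribosomal genes were 0.44, 0.14 and 0.34. No test was made of these lists against each other. Markers of leukocytes moved in the same libraries: the summed level of 6 markers was 142 to 157 CPM in 22 from co-culture and 199.6 to 229 CPM in isolated 22, 67.4 to 73.4 and 10.7 to 26.6 CPM in 35, and 91.3 to 99.5 and 141 to 179.7 CPM in 45. Nearly all of it was LAPTM5, while CD3E and TYROBP had group means of at most 0.01 CPM. The part of these markers in the result was not tested.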

How the data were processed

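The authors deposited estimated counts scaled for transcript length, without depth normalization, as 2 separate tables. The submitters' processing notes name STAR 2.6.1d, Salmon 1.4.0 and GRCh38; the annotation and any filter are not given in the sources used here. Libraries were made with a stranded kit from 500 ng RNA, as paired reads of 75 nt, per the labels' protocols. Of the table columns, 0 lacked a sample.

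The estimated counts were rounded and fitted table by table, all groups together, with edgeR 4.0.16 (R 4.3.3, limma 3.58.1): TMM normalization, filterByExpr, robust quasi-likelihood tests and Benjamini-Hochberg adjustment over all genes tested, at 0.05. The fit kept 14570 and 14638 genes. The common biological coefficient of variation was 10.4% for both tables, and TMM factors ran from 0.926 to 1.07 and from 0.946 to 1.04. SE was computed as the log2 fold change divided by the square root of F. The calculation was run on simulated counts in which far fewer genes changed than were called in these data. The outcome of that run is not given here. The set and the lists were chosen with earlier results of these data known.

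Members were named if called, at 5 CPM or more in a group, without overlap of replicates and among the 4 (co-culture, interactions) or 3 (lineages) largest changes each way, or if called alike in all 3 lineages, among the 3 highest or lowest levels of a table, or MRPS18 paralogs. Of other lists, genes of the smallest p were named. Coordinates are GENCODE 29 (GRCh38). In that annotation 34 of the 77 genes have 75 named pseudogenes and 10 share exon sequence with another gene on the same strand. Neighbours are the 25 nearest tested genes on each side, fewer near chromosome ends, and this alternative was added after seeing the data. Other alternatives were RLE normalization, summed counts as library size, no filter, DESeq2 1.42.0, a replicate block, the compared groups alone, the chromosome's median taken off, and leaving out each library.

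Labels do not say that replicate numbers pair libraries. Libraries of the same number deviated from group means with correlations above 0.1 in all 3 pairs only between the co-culture groups of 22 and 45 (0.36, 0.25 and 0.17), which the numbers may therefore pair.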

Additional observations from a re-analysis of the deposited data

Results flagged for a closer look

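The response to co-culture differed between lineages, taken as labelled, for part of these genes, by the interaction term of the edgeR fit. Between 22 and 35 it differed for 38 of the 77 genes, against 49.6% of all genes. Between 35 and 45 it differed for 33 of the 77, against 42.3% of all genes. Both shares of the 77 were close to those of all genes, so these counts do not set the mitoribosomal genes apart. Between 22 and 45 it differed for 4 of the 77, a smaller share than the 17.3% of all genes. The response of 22 less that of 35 was a log2 difference of 1.16 for MRPS9, 1.10 for MRPS15, 1.09 for MRPL2 and 1.01 for MRPL14. It was -0.67 for MRPS35, -0.49 for MRPL17, -0.48 for MRPS30 and -0.40 for MRPL55. The response of 35 less that of 45 was 0.61 for MRPL17, 0.51 for MRPS35, 0.45 for MRPS17 and 0.42 for MRPL55. It was -1.08 for MRPS15, -1.04 for MRPS10, -0.99 for MRPS9 and -0.99 for MRPL2. The response of 22 less that of 45 was 0.47 for MRPL4, 0.41 for MRPL27, 0.36 for MRPL38 and -0.53 for MRPS18C. The difference of MRPL55 had an adjusted p of 0.0473 between 22 and 35 and 0.0423 between 35 and 45. The co-culture libraries labelled 35 correlated at 0.924 with isolated 35 and at 0.984 with 45 from co-culture. The median log2 fold change of 35 over 45 on chromosome 6 was 0.44 in isolation and -0.04 from co-culture. On chromosome 12 it was -0.39 and -0.0003, and on chromosome 7 -0.09 and 0.18. What this means for the interactions with 35 was not tested.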

How the results depend on the processing

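Over 169 values of named genes under the alternatives, 2034 of 2148 kept direction and call, 114 lost the call and 0 changed sign. Of the counts, 397 stayed within 1.5 times the reported one and 71 did not. With summed counts as library size, 3 genes were lower in 22, 1 had the larger response in 22 than in 45, 2 were higher in isolated 22 than 45, 0 in 22 than 45 from co-culture, 4 lower in 35 than 45 from co-culture, 18 higher and 7 lower in 10 than Pop, and 46 lower in 03 than 10. In the same order the counts over all genes were 5673, 815, 3024, 1572, 1093, 3429, 2923 and 4611. With the compared groups alone, 3 had the smaller response in 22 than in 35, 2 were higher in isolated 22 than 45, 2 in 22 than 35 and 0 in 22 than 45 from co-culture, 8 lower in 22 than 45 from co-culture, 1 higher in 03 than Pop, 7 lower in 10 than Pop, 48 lower in 03 than 10 and 13 lower in 10 than 13. With RLE and with DESeq2, 2 were higher in 22 than 45 from co-culture, and DESeq2 gave 5 with the larger response in 22 than in 45. With the replicate block, 2 genes were lower in 22 and 7 in 10 than Pop; between 22 and 45 from co-culture the block gave 1 higher and 15 lower, against 1 and 17 without it. The block gives all groups a common replicate effect, and it moved no other count by over 1.5 times. The cause of these changes was not tested.

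Leaving out 1 library at a time, the larger response in 22 than in 45 held for 1 to 5 genes and the smaller for 0 to 2, the larger in 35 than in 45 for 3 to 6 and the smaller in 22 than in 35 for 3 to 5. Genes lower in 22 from co-culture numbered 1 to 2, higher in isolated 22 than 45 from 0 to 1 and lower in isolated 35 than 45 from 6 to 10. From co-culture, 2 to 7 were higher in 22 than 35, 0 to 2 higher and 10 to 22 lower in 22 than 45, and 0 to 1 higher in 35 than 45. Against Pop, 1 to 8 were higher in 03, 8 to 27 higher and 6 to 21 lower in 10, and 5 to 19 higher and 8 to 27 lower in 13. Lower in 03 than 13 were 17 to 27, and lower in 10 than 13 were 3 to 8. For the fits without 1 library, counts over all genes are not given here, so these ranges describe the mitoribosomal genes only. The lowest count of these genes in any library was 346, and depth was not varied.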
